A study of Mus musculus with 6 samples.

Results

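Immunoglobulin variable (V) segments are the gene pieces that encode the antigen-contacting end of antibody heavy chains (Ighv, mouse chromosome 12), kappa light chains (Igkv, chromosome 6) and lambda light chains (Iglv, chromosome 16). V segments were taken by name, as all genes whose symbol starts with Ighv, Igkv or Iglv and whose level was above 0 in at least 1 of 4 RNA-seq libraries. This gave 238 of the 30409 genes in the files: 119 Ighv of 121 listed, 116 Igkv of 119 listed and all 3 Iglv. The other 5 of the 243 listed segments (Ighv1-37, Ighv8-3, Igkv4-56, Igkv5-37 and Igkv9-119) were at 0 in every library. RefSeq's GRCm38.p6 annotation of the mouse genome gives a position for all 238 and marks 37 of them as V pseudogenes.

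In developing B cells, V(D)J recombination cuts and joins a V segment to D and J segments in the heavy chain and to a J segment in the light chains, and the joined V region is then transcribed with a constant gene. An expanding B cell clone hands its joined V segments on to its descendants, so the V segments in an RNA sample reflect which clones made that RNA. Antibody-secreting plasma cells are known for very high immunoglobulin transcript levels. Haematopoietic stem cells, from which B cells descend, carry these loci unjoined.

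RNA came from mouse bone marrow cells with the surface phenotype Lineage−Sca1+cKit+CD34−Flk2−, by which long-term haematopoietic stem cells (LT-HSCs) are sorted. The first library was from Twist1 cKO mice 12 days after irradiation, the second from wild-type (WT) mice 12 days after irradiation, the third from Twist1 cKO mice at steady state and the last from WT mice at steady state, all on the C57BL/6 strain. Twist1 is a transcription factor gene of the basic helix-loop-helix type. The Cre driver of the conditional knockout, the irradiation dose, the animals' age and any pooling of animals are not given in the sources used here. Each group held 1 library, so differences below have no replicate check and were not tested between groups. Bounds in brackets are 95% counting intervals from reads recovered from the authors' values, and they leave out variation between animals and sorts. The 2 ATAC-seq samples were not analysed here.

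Reads recovered in genes numbered between 20389584 and 25127546 per library. Of 9 LT-HSC markers, all were above 1 FPKM (reads scaled to gene length and to the authors' total for the library) in both steady-state libraries, against 4 in the irradiated cKO and 3 in the irradiated WT library. Hlf, Mecom, Fgd5 and Hoxb5 were each under 1 FPKM in both irradiated libraries, whereas Kit and Ly6a (Sca1), which the sort selects, were above 1 FPKM in all 4. Cd34, whose product the sort excludes, was at 0.322 FPKM in irradiated cKO, 0.155 FPKM in irradiated WT, 29.2 FPKM in steady-state cKO and 18.4 FPKM in steady-state WT cells. Twist1 had 0 reads in irradiated cKO, 5 in irradiated WT, 2 in steady-state cKO and 6 in steady-state WT cells, too few to check the genotype labels. Xist, transcribed in female cells, had 241, 398, 7 and 8 reads in the same order, and the Y-linked Ddx3y had 2, 6, 1624 and 1385. The libraries therefore divide by these sex-linked transcripts as they do by irradiation, and the effects of sex and irradiation on V segments cannot be told apart. V segments of a family resemble each other, and the sources used here do not say how reads matching several were counted, so a single segment's level may include reads of its relatives.

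V segment transcripts were abundant in all 4 libraries, and the genotypes differed in opposite directions in the 2 conditions. The summed V level was 59546 FPKM in irradiated cKO and 23151 FPKM in irradiated WT cells, and 69318 FPKM in steady-state cKO and 115354 FPKM in steady-state WT cells. V segments took 2.52% [2.51, 2.52] of gene reads in irradiated cKO and 0.765% [0.761, 0.768] in irradiated WT cells, and 2.97% [2.96, 2.97] in steady-state cKO and 4.45% [4.44, 4.46] in steady-state WT cells. The irradiated WT library was the lowest and the steady-state WT library the highest, with both cKO libraries between them. In these bulk samples, fewer cells that make a transcript and less of it per cell cannot be told apart.

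After irradiation the summed V level was 2.57-fold higher in cKO than in WT cells. At steady state it was 1.66-fold lower in cKO than in WT cells. The same directions held in each chain. After irradiation, cKO over WT was 2.92-fold for Ighv, 2.55-fold for Igkv and 2.04-fold for Iglv. At steady state, cKO was 1.59-fold lower than WT for Ighv, 1.68-fold for Igkv and 1.75-fold for Iglv. Counting error was small beside these differences: by recovered reads the overall folds were 2.56 [2.55, 2.57] after irradiation and 1.65 [1.65, 1.66] lower at steady state.

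**Figure D1:**
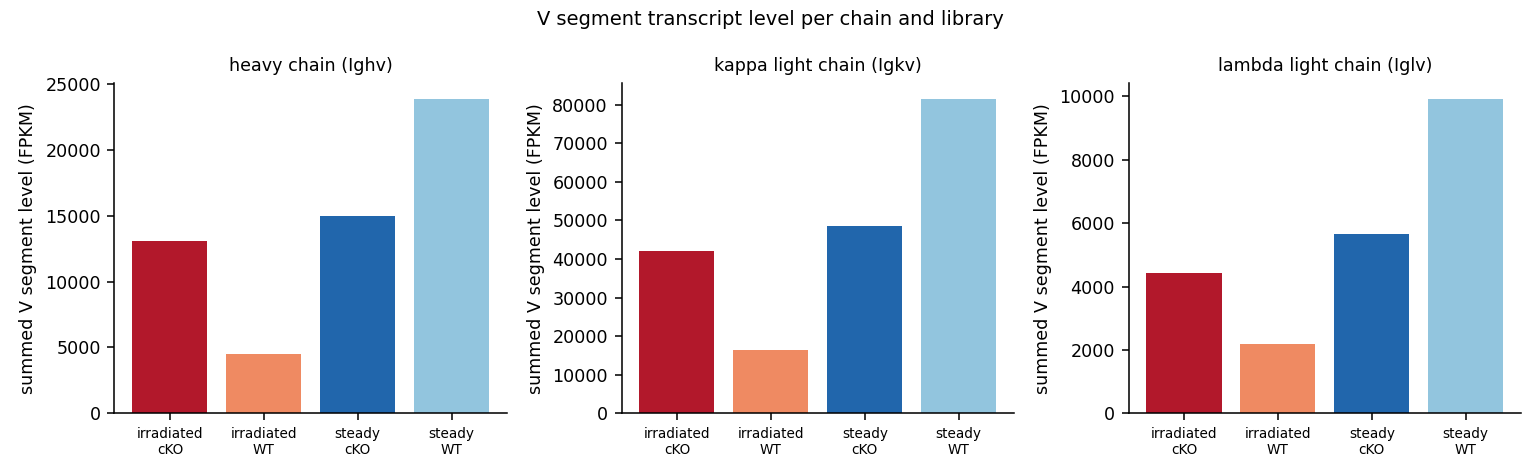
Bars give the summed FPKM of the heavy, kappa and lambda V segments in each library, 1 library per bar with no error bar. In each chain the irradiated WT bar is the lowest (4481, 16497 and 2173 FPKM for Ighv, Igkv and Iglv) and the steady-state WT bar the highest (23891, 81537 and 9926 FPKM).

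Irradiated WT cells had a 4.98-fold lower summed V level than steady-state WT cells. Irradiated cKO cells had a 1.16-fold lower level than steady-state cKO cells as deposited, but this small difference turned round with the scaling: the ratio of irradiated to steady-state cKO was 0.859 as deposited, 1.03 with scaling by the median of ratios and 1.73 with scaling by the upper quartile. Without the top segment of each chain in each library that ratio was 1.496, but the segments left out were not the same in both libraries. Leaving the leaders of the steady-state libraries, Ighv11-2 and Igkv14-126, out of both was a choice made after seeing the data. Both were further below their steady-state level than the sum was, so leaving them out raises the ratio by construction. The cKO ratio was then 1.57 for the other Ighv and 1.76 for the other Igkv segments, and that of Iglv, with none left out, was 0.783.

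Markers of antibody-secreting and B lineage cells were present, and their sums differed between genotypes in the same directions as the V level. The summed level of 7 plasma cell markers (Sdc1, Tnfrsf17, Prdm1, Xbp1, Mzb1, Jchain and Slamf7) was 4524 FPKM in irradiated cKO, 1552 FPKM in irradiated WT, 3106 FPKM in steady-state cKO and 5604 FPKM in steady-state WT cells. Most of it was Jchain, the joining chain of secreted IgM and IgA, at 4264, 1423, 2794 and 5063 FPKM in that order. The 7 mature B cell markers summed to 92.8, 44.7, 134 and 187 FPKM, and the 6 markers of pro- and pre-B cells to 24.6, 22.2, 53.4 and 59.4 FPKM. Most of the mature B cell sum was Cd79a (57.2, 25.4, 59.1 and 91.7 FPKM) and Cd79b (32.8, 17.8, 70.7 and 90.9 FPKM). Between 2 and 4 of the 7 mature B cell markers reached 1 FPKM in a library. Some markers ran against the sums: Ms4a1 and Vpreb1 were lower in irradiated cKO than in irradiated WT cells. Fcer2a, Cr2 and Rag2 were higher in steady-state cKO than in steady-state WT cells. All of these but Vpreb1 were under 1 FPKM in the libraries compared. No marker of these lists was at 0 in any library. The irradiated WT library was the lowest in all 3 lists and the steady-state WT library the highest, whereas the plasma cell sum was higher in irradiated than in steady-state cKO cells. That difference was Jchain's: the other 6 plasma cell markers summed to 261 FPKM in irradiated and 312 FPKM in steady-state cKO cells, with 4 of them lower and 2 higher. Their part in the V segment differences was not tested.

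Kappa dominated the light chains to nearly the same degree everywhere. Igkv made up 90.5% of the light chain V level in irradiated cKO and 88.4% in irradiated WT cells, and 89.6% in steady-state cKO and 89.1% in steady-state WT cells. Summed V levels were also near those of the constant genes they are spliced to, though the ratios shifted between conditions. Summed Igkv over Igkc, the single kappa constant gene, was 0.868 in irradiated cKO and 0.806 in irradiated WT cells, and 1.05 in steady-state cKO and 1.06 in steady-state WT cells. Summed Ighv over the summed heavy chain constant genes was 1.10 and 1.01 in irradiated cKO and WT cells, and 0.833 and 0.813 in steady-state cKO and WT cells. After irradiation the kappa ratio was thus lower and the heavy chain ratio higher. Summed Iglv over the summed lambda constant genes was 1.37 and 1.65 in irradiated cKO and WT cells, and 1.43 and 1.53 in steady-state cKO and WT cells.

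The number of segments seen was largest where the V level was highest. Above 0 FPKM were 191 segments in irradiated cKO and 154 in irradiated WT cells, and 198 in steady-state cKO and 208 in steady-state WT cells. Reduced to the reads of the shallowest library (36867 for Ighv, 134083 for Igkv), the expected number of Ighv segments was 79.8 in irradiated cKO and 69.0 in irradiated WT cells, and 88.4 in steady-state cKO and 97.3 in steady-state WT cells. For Igkv it was 88.2 and 82.0 in irradiated cKO and WT cells, and 85.5 and 90.2 in steady-state cKO and WT cells. The irradiated WT library held the fewest segments and the steady-state WT library the most at equal depth as well. Only 28 segments reached 100 FPKM in all 4 libraries, whereas 34 did so in a single library, and 40 stayed under 1 FPKM everywhere.

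Evenness followed irradiation more than genotype in kappa. The effective number of segments, the count of equally used segments that would give the same Shannon entropy of FPKM shares, was 25.1 [25.1, 25.2] for Igkv in irradiated cKO and 25.2 [25.1, 25.4] in irradiated WT cells. It was 9.22 [9.17, 9.28] in steady-state cKO and 13.6 [13.5, 13.6] in steady-state WT cells. Kappa usage was thus more concentrated in both steady-state libraries, and most so in cKO. For Ighv the effective number was 24.0 [23.8, 24.1] in irradiated cKO and 18.4 [18.2, 18.6] in irradiated WT cells, and 10.5 [10.4, 10.6] in steady-state cKO and 19.7 [19.5, 19.8] in steady-state WT cells. In the heavy chain the cKO library was the more even of the irradiated pair and the less even of the steady-state pair. The inverse Simpson number, which weights the most used segments more, put the irradiated pair in the other order: 11.4 in cKO and 12.5 in WT cells.

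**Figure D2:**
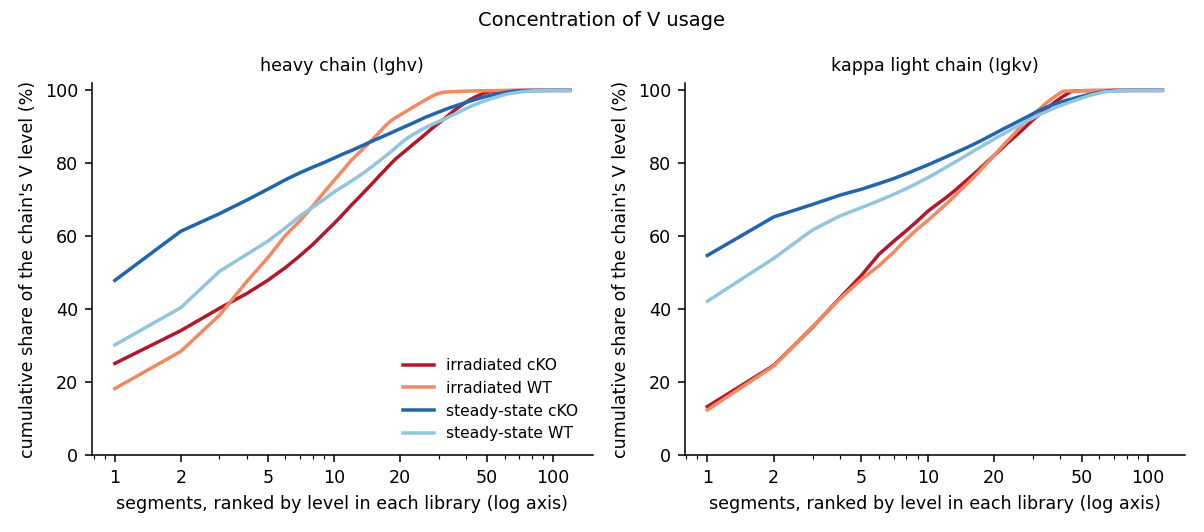
Lines give the cumulative share of a chain's V level (percent of FPKM) over segments ranked from most to least used in each library, on a log axis of rank. In both irradiated libraries 6 Igkv segments were needed for 50% of the chain, whereas a single segment made up 54.8% and 42.2% of it in steady-state cKO and WT cells.

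In each chain a single segment led both steady-state libraries. Ighv11-2 (chr12:114048241-114048704 in GRCm38.p6) was at 799 FPKM in irradiated cKO and 444 FPKM in irradiated WT cells, against 7185 FPKM in steady-state cKO and 7223 FPKM in steady-state WT cells. Its share of the heavy chain V level was 6.11% and 9.90% in irradiated cKO and WT cells, and 47.9% and 30.2% in steady-state cKO and WT cells. Its level was about equal in the steady-state genotypes (cKO 1.01-fold lower [0.996, 1.01]), while the sum of Ighv was lower in cKO.

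Igkv14-126 (chr6:67896177-67896642) was at 3386 FPKM in irradiated cKO and 2052 FPKM in irradiated WT cells, against 26654 FPKM in steady-state cKO and 34417 FPKM in steady-state WT cells. Its share of the kappa V level was 8.06% and 12.4% in irradiated cKO and WT cells, and 54.8% and 42.2% in steady-state cKO and WT cells. Both steady-state libraries were far above both irradiated ones. In mice, Ighv11-2 and Igkv14-126 are known as the heavy and light V segments of a shared antibody to phosphatidylcholine made by B-1 cells, an innate-like B cell subset. RefSeq marks Igkv14-126 as a pseudogene, and bulk RNA cannot show which heavy and light chains were paired in a cell.

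Irradiated cells had less of both segments than steady-state cells in each genotype. Ighv11-2 was 8.99-fold lower [8.80, 9.20] in irradiated than in steady-state cKO cells and 16.3-fold lower [15.8, 16.8] in irradiated than in steady-state WT cells. Igkv14-126 was 7.87-fold lower [7.78, 7.97] in cKO and 16.8-fold lower [16.5, 17.0] in WT cells on irradiation.

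With these segments left out, a choice made after seeing the data, kappa usage was no longer less even in the steady-state libraries. Neither was heavy chain usage in steady-state cKO cells, while in WT cells it was the more even at steady state with or without Ighv11-2. Without Ighv11-2 the effective number of Ighv segments was 23.1 in irradiated cKO and 17.7 in irradiated WT cells, and 24.3 in steady-state cKO and 29.7 in steady-state WT cells. Without Igkv14-126 that of Igkv was 24.6 and 26.0 in irradiated cKO and WT cells, and 29.6 and 28.0 in steady-state cKO and WT cells. The order of the conditions turned round in kappa, and in the heavy chain steady-state cKO no longer stood below irradiated cKO. Only the leaders of the steady-state libraries were taken out, while Ighv1-81, which led the irradiated heavy chain, stayed in. The removal thus favours higher steady-state effective numbers by its construction, and cannot show which condition would be more even without its leaders.

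Further segments were high mainly at steady state. Ighv7-1, the heavy V segment of the T15 antibody to phosphorylcholine in mice and a pseudogene in RefSeq, was at 35.6 FPKM in irradiated cKO and 0 in irradiated WT cells, against 2021 FPKM in steady-state cKO and 2445 FPKM in steady-state WT cells. It was 56.8-fold lower [50.7, 63.8] in irradiated than in steady-state cKO cells. In WT cells it was 6552-fold lower on irradiation, taken against 3 reads in the library at 0, with a 95% lower bound of 5328-fold. Igkv15-103 was at 582 and 79.7 FPKM in irradiated cKO and WT cells, against 5139 and 9587 FPKM in steady-state cKO and WT cells. Both steady-state libraries ranked Ighv7-1 and Igkv15-103 second in their chains. Ighv6-3 was at 1.32 and 0.507 FPKM in irradiated cKO and WT cells, against 453 and 869 FPKM in steady-state cKO and WT cells.

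**Figure D3:**
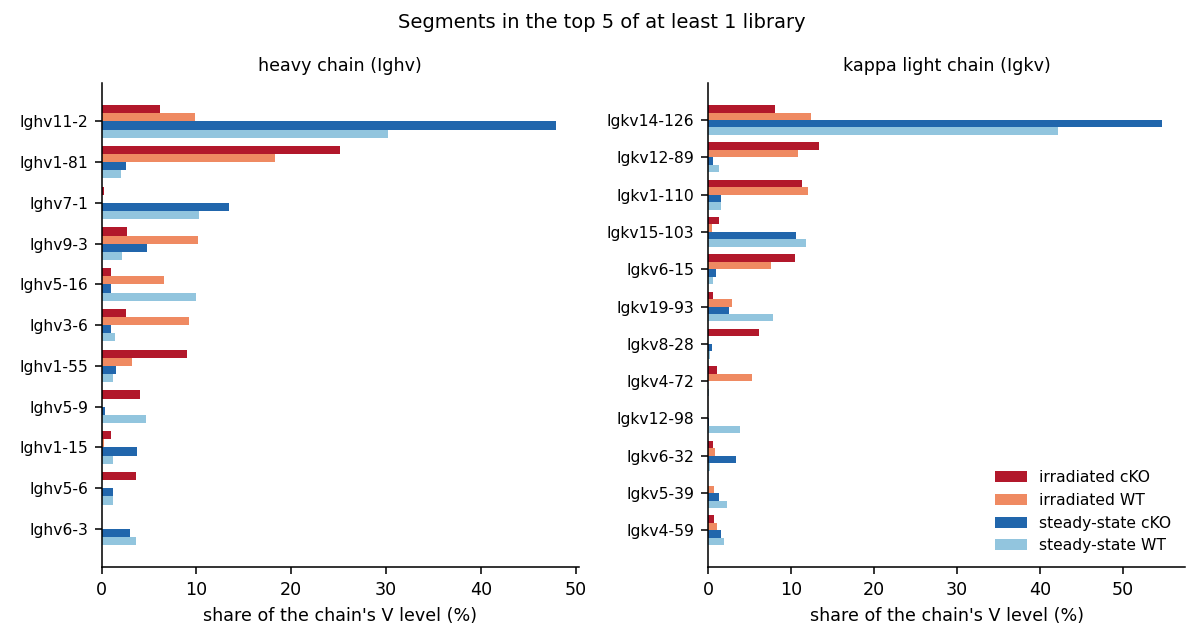
Bars give the share of the chain's V level (percent of FPKM) for each segment that ranked in the top 5 of at least 1 library, with 1 library per bar and no error bars. Ighv1-81 leads the irradiated heavy chain, at 25.2% in cKO and 18.3% in WT cells, while Ighv11-2 and Igkv14-126 lead both steady-state libraries, at 47.9% and 54.8% in cKO and 30.2% and 42.2% in WT cells.

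Other segments led after irradiation, except that Igkv14-126 was still first among the kappa segments of irradiated WT cells, and both irradiated libraries shared several leaders. Ighv1-81 (chr12:115920279-115920572), a member of the large Ighv1 family, ranked first in both irradiated libraries, at 3293 FPKM in cKO and 819 FPKM in WT cells, against 383 FPKM in steady-state cKO and 482 FPKM in steady-state WT cells. Igkv12-89 was at 5609 and 1790 FPKM in irradiated cKO and WT cells, and at 279 and 1128 FPKM in steady-state cKO and WT cells. Igkv1-110 was at 4743 and 1979 FPKM in irradiated cKO and WT cells, and at 753 and 1256 FPKM in steady-state cKO and WT cells. Igkv6-15 was at 4404 and 1258 FPKM in irradiated cKO and WT cells, and at 459 and 490 FPKM in steady-state cKO and WT cells. These 4 segments were higher in irradiated than in steady-state cells of either genotype, whereas the summed V level as deposited was lower.

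Within the irradiated pair, cKO cells had the higher level of most segments. Segments were counted where the higher library reached 5 FPKM and both were at least 2-fold apart on the log2(FPKM + 1) scale. By this count, 78 of 123 V segments that reached 5 FPKM were higher in cKO and 23 were lower. Over all 6348 genes kept, 4.47% were higher and 1.04% lower, 5.51% in either direction. The median difference of the V segments was 1.94 (log2), against -0.45 over all genes. The median over all genes depended on the scaling and was 0.07 with scaling by the upper quartile. When each chain was first set to the same total, which compares usage and not level, the split was 57 higher and 35 lower. Of the 119 Ighv segments 59 were kept, with 42 higher and 8 lower. Of the 116 Igkv segments 61 were kept, with 34 higher and 14 lower.

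Several segments were abundant in one irradiated library and nearly missing from the other. Igkv8-28 was at 2578 FPKM in irradiated cKO and 1.83 FPKM in irradiated WT cells, and at 220 and 185 FPKM in steady-state cKO and WT cells. It was 1408-fold higher [806, 2726] in cKO after irradiation, on 12 reads in WT cells. Ighv5-6 was at 479 and 0.256 FPKM in irradiated cKO and WT cells (1873-fold [518, 15469], on 2 reads in WT), and at 186 and 288 FPKM in steady-state cKO and WT cells. Ighv5-9 was at 532 and 0.324 FPKM in irradiated cKO and WT cells, and at 49.0 and 1117 FPKM in steady-state cKO and WT cells. Only the irradiated WT library was near 0 for these 3 segments.

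Ighv1-49, Ighv1-69, Ighv1-63, Ighv1-85 and Ighv1-12 had 0 reads in irradiated WT cells and between 89.4 and 239 FPKM in irradiated cKO cells. Ighv1-49 was 619-fold higher in cKO, taken against 3 reads in the library at 0, with a lower bound of 503-fold by counting error. It was also at 0 in steady-state cKO and at 36.0 FPKM in steady-state WT cells, so it was present in 1 library of each pair only. The reverse was also found. Igkv3-7 was at 0.238 FPKM in irradiated cKO and 591 FPKM in irradiated WT cells, 2486-fold lower [688, 20532] on 2 reads in cKO, and at 147 and 80.9 FPKM in steady-state cKO and WT cells. Ighv8-12, Igkv5-39, Igkv4-53 and Ighv1-58 had 0 reads in irradiated cKO and between 44.0 and 127 FPKM in irradiated WT cells.

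The Igkv8 family, picked after its values were seen, shows the contrast as a group. It made up 15.2% of the kappa V level in irradiated cKO and 2.33% in irradiated WT cells, against 3.27% and 2.75% in steady-state cKO and WT cells. In irradiated WT cells, Igkv8-21, named here after its values were seen, supplied most of the family's level. It was at 1235 FPKM of the family's 6379 FPKM in irradiated cKO cells and at 370 FPKM of 385 FPKM in irradiated WT cells. Some families ran the other way: Igkv3 made up 4.05% and 12.3% of the kappa V level in irradiated cKO and WT cells, and Igkv9 0.380% and 3.61%.

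At steady state the direction was the opposite. Of 170 V segments kept, 18 were at least 2-fold higher and 89 lower in cKO than in WT cells. Over all 7157 genes kept, 0.643% were higher and 2.70% lower, 3.34% in either direction. The median difference was -1.11 for V segments and 0.01 over all genes. With each chain set to the same total, the split was 34 higher and 61 lower. Of 118 segments kept in both genotype comparisons, 40 were higher in irradiated cKO and lower in steady-state cKO than in the matching WT library, 14 were lower in cKO in both, 3 higher in both, and 2 lower after irradiation and higher at steady state. Over all 5733 genes kept in both, these patterns held 1.08%, 0.297%, 0.227% and 0.0523% of genes in that order. The V segments are part of these shares, and over the 5615 other genes they were 0.392%, 0.0534%, 0.178% and 0.0178%.

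Igkv12-98 had the widest difference among the 5 leading Igkv segments of steady-state WT cells. It was at 46.2 FPKM in steady-state cKO and 3142 FPKM in steady-state WT cells, 67.9-fold lower [61.6, 75.1], and had 3 and 0 reads in irradiated cKO and WT cells. Ighv5-16 was at 141 FPKM in steady-state cKO and 2371 FPKM in steady-state WT cells, 16.9-fold lower [16.0, 17.8], and at 130 and 295 FPKM in irradiated cKO and WT cells. Igkv19-93 was at 1243 and 6343 FPKM in steady-state cKO and WT cells, 5.10-fold lower [5.001, 5.21]. All 3 were highest in the steady-state WT library.

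A few segments ran the other way at steady state. Igkv6-32 was at 1666 FPKM in steady-state cKO and 202 FPKM in steady-state WT cells, 8.24-fold higher [7.85, 8.64], and at 254 and 135 FPKM in irradiated cKO and WT cells. Igkv1-99 was at 423 and 13.9 FPKM in steady-state cKO and WT cells, 30.4-fold higher [25.6, 36.3], with 0 reads in both irradiated libraries. Ighv1-15 was at 558 and 292 FPKM in steady-state cKO and WT cells, and Ighv9-3 at 720 and 508 FPKM. None of these 4 reached a share of 5% of its chain in steady-state cKO cells.

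On irradiation, V segments of cKO cells were divided about evenly between higher and lower, whereas most V segments of WT cells were lower. In cKO cells 67 of 156 V segments kept were at least 2-fold higher after irradiation and 68 lower, against 10.3% and 22.6% of the 7393 genes kept, 32.9% in either direction. The median difference in cKO was -0.03 for V segments and -0.20 over all genes. In WT cells 15 of 163 were higher after irradiation and 115 lower, against 18.9% and 18.9% of the 7418 genes kept, 37.8% in either direction. The median difference in WT was -3.51 for V segments and 0.21 over all genes. With each chain set to the same total, the split was 73 higher and 66 lower in cKO, and 53 higher and 89 lower in WT cells.

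A high ratio on irradiation requires a low level in the steady-state library of the same genotype, and some of these segments were abundant in the other genotype. Igkv4-80 was at 588 FPKM in irradiated cKO and 1.17 FPKM in irradiated WT cells, against 0.342 FPKM in steady-state cKO, which is 3 reads, and 450 FPKM in steady-state WT cells. It was 1722-fold higher [589, 8353] after irradiation in cKO cells and 386-fold lower [203, 844] in WT cells. Igkv4-72 was at 466 FPKM in irradiated cKO and 867 FPKM in irradiated WT cells, against 0.788 FPKM in steady-state cKO and 80.2 FPKM in steady-state WT cells. It was 591-fold higher [300, 1370] in cKO and 10.8-fold higher [10.1, 11.6] in WT cells after irradiation. Igkv14-130 was at 0.242 and 324 FPKM in irradiated cKO and WT cells, and at 61.8 and 0 FPKM in steady-state cKO and WT cells. In WT cells it was 993-fold higher after irradiation, taken against 3 reads at steady state, with a lower bound of 807-fold by counting error. Irradiated cKO cells had 2 reads of it. At the other end, Igkv16-104, Igkv12-98 and Ighv7-3 had 0 reads in irradiated WT cells and 740, 3142 and 345 FPKM in steady-state WT cells.

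By overlap, usage was more alike between genotypes of the same condition than between conditions, whereas the rank order of segments set only the steady-state pair apart. The overlap of usage, the sum over segments of the smaller of both libraries' shares, was 53.5% for Ighv and 59.0% for Igkv between irradiated cKO and irradiated WT cells. Between steady-state cKO and steady-state WT cells it was 67.8% and 77.5%. Between irradiated and steady-state cells it was 27.6% and 29.3% in cKO and 37.7% and 34.5% in WT cells. Of the top 10 segments of a library, the irradiated pair shared 6 Ighv and 5 Igkv, and the steady-state pair shared 6 Ighv and 7 Igkv, against 4 or 5 Ighv and 2 to 4 Igkv for pairs of an irradiated and a steady-state library. Spearman's rho of the levels over 119 Ighv and 116 Igkv segments was 0.50 and 0.57 for the irradiated pair and 0.76 and 0.80 for the steady-state pair. For the 4 pairs of an irradiated and a steady-state library it ranged between 0.43 and 0.56 for Ighv and between 0.55 and 0.64 for Igkv, and the irradiated pair lay within both ranges. Summed by family the overlaps were higher, at 73.9% and 72.3% for the irradiated pair and 76.2% and 81.6% for the steady-state pair.

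By family, irradiated cells drew most heavy chain V transcripts from Ighv1, whose 60 members lie between 1040 and 2571 kb from the J segments. Ighv1 made up 67.4% of the heavy chain V level in irradiated cKO and 52.1% in irradiated WT cells, against 17.7% in steady-state cKO and 18.7% in steady-state WT cells. Ighv11 made up 6.11% and 9.93% in irradiated cKO and WT cells, against 48.0% and 30.3% in steady-state cKO and WT cells. Ighv5, close to the J segments, made up 14.8% and 7.34% in irradiated cKO and WT cells, and 4.17% and 17.9% in steady-state cKO and WT cells. Ighv5 was thus higher in cKO after irradiation and lower in cKO at steady state, in share as in level.

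In kappa the leading families also changed. Igkv14 made up 10.2% and 16.7% of the kappa V level in irradiated cKO and WT cells, against 55.6% and 42.8% in steady-state cKO and WT cells. Igkv6 made up 18.3% and 13.4% in irradiated cKO and WT cells, against 7.87% and 3.99% in steady-state cKO and WT cells. Igkv1 was at 16.2% and 16.6% in irradiated cKO and WT cells, against 4.52% and 5.86% in steady-state cKO and WT cells. No family reached 20% of the kappa level in an irradiated library.

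Along the chromosome, the Ighv locus was divided into 4 equal stretches from the J segments outwards. The nearest stretch, where Ighv11-2, Ighv7-1 and the Ighv5 family lie, held 28.0% of the heavy chain V level in irradiated cKO and 28.6% in irradiated WT cells, against 74.0% in steady-state cKO and 65.6% in steady-state WT cells. The farthest stretch, with Ighv1-81, held 35.9% and 25.9% in irradiated cKO and WT cells, against 5.94% and 7.54% in steady-state cKO and WT cells. In Igkv the order was the reverse. The nearest stretch held 37.5% and 28.0% in irradiated cKO and WT cells, against 13.5% and 9.63% in steady-state cKO and WT cells, and the farthest stretch, with Igkv14-126, held 27.3% and 38.9% against 60.8% and 48.7%. Single segments made up much of these shares at steady state.

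**Figure D4:**
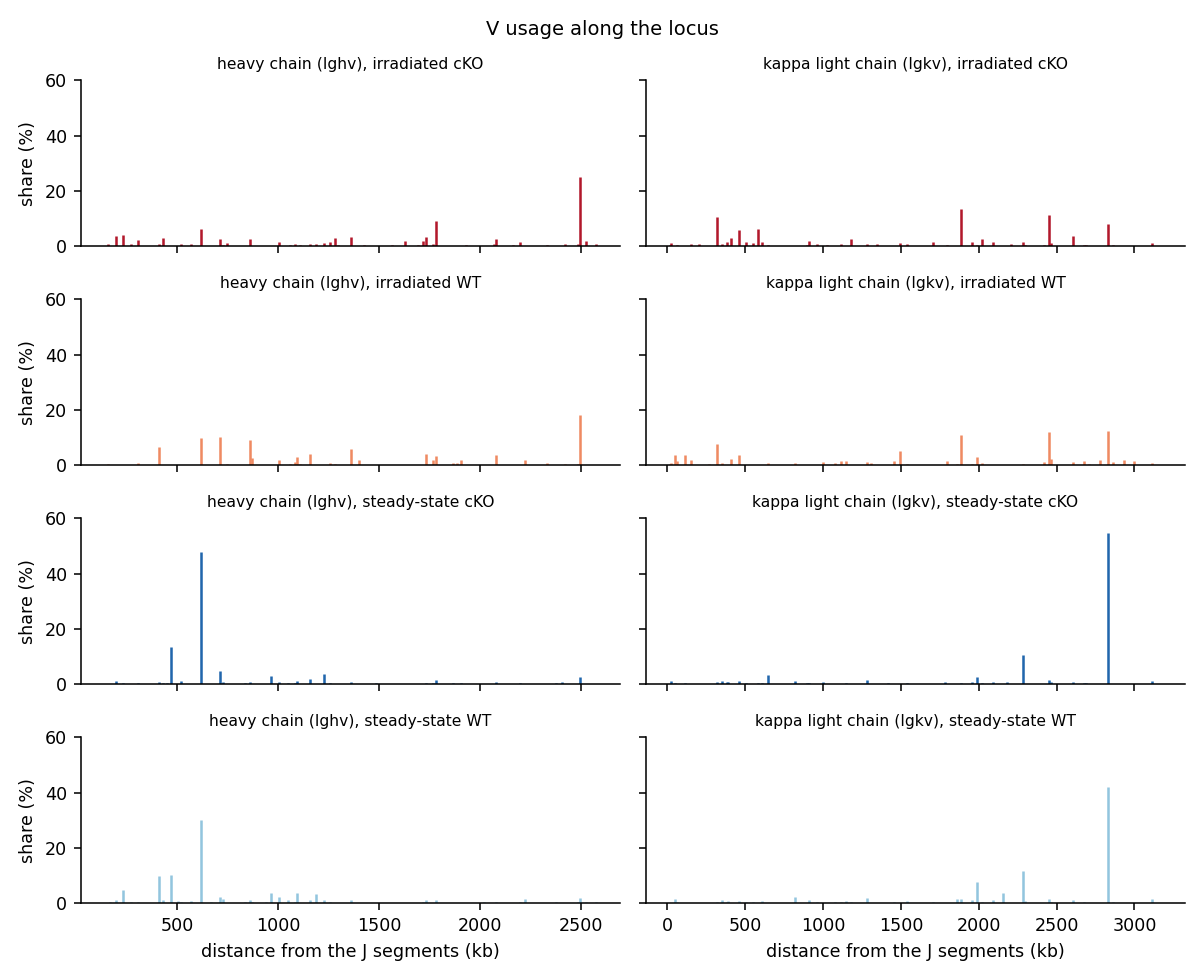
Each line is a V segment, placed by its distance from the J segments in kb and drawn to its share of the chain's V level (percent of FPKM), for Ighv on the left and Igkv on the right, with 1 library per row. Ighv1-81, 2491 kb from the J segments, is the highest line in both irradiated heavy chain panels, while Ighv11-2 at 619 kb and Igkv14-126 at 2827 kb stand out in both steady-state libraries.

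Between the irradiated genotypes Iglv2 was lower in cKO cells, whereas Iglv1 and Iglv3 were higher. Iglv1 was at 4341 FPKM in irradiated cKO and 1318 FPKM in irradiated WT cells, and at 4530 and 7212 FPKM in steady-state cKO and WT cells. Iglv2 was at 19.5 FPKM in irradiated cKO and 837 FPKM in irradiated WT cells, and at 932 and 2152 FPKM in steady-state cKO and WT cells. Iglv3 was at 68.5 and 17.7 FPKM in irradiated cKO and WT cells, and at 194 and 563 FPKM in steady-state cKO and WT cells. After irradiation Iglv2 was 43.0-fold lower [36.9, 50.5] in cKO than in WT cells while Iglv1 was 3.29-fold higher [3.23, 3.36], so irradiated cKO lambda transcripts were 98.0% Iglv1.

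The lambda constant genes differed in the same directions between the irradiated genotypes, but not by the same folds. In mice Iglv2 is mostly joined to Iglc2, and Iglv1 to Iglc1 or Iglc3. Iglc2 was at 186 FPKM in irradiated cKO and 473 FPKM in irradiated WT cells, 2.55-fold lower, and at 668 and 1787 FPKM in steady-state cKO and WT cells. Iglc1 was at 2892 and 828 FPKM in irradiated cKO and WT cells, 3.49-fold higher, and at 3159 and 4019 FPKM in steady-state cKO and WT cells. Iglc3 was at 144 and 17.3 FPKM in irradiated cKO and WT cells, 8.35-fold higher, and at 113 and 693 FPKM in steady-state cKO and WT cells. Each of these irradiated differences had the direction of the matching V segment. In size they were unlike for Iglc2, which was 2.55-fold lower where Iglv2 was 43.0-fold lower.

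The heavy chain classes beside the V segments also divided by irradiation. Igha, the IgA constant gene, made up 75.8% of the heavy chain constant level in irradiated cKO and 63.7% in irradiated WT cells, against 7.16% in steady-state cKO and 5.67% in steady-state WT cells. Ighm, the IgM constant gene, made up 22.6% and 34.6% in irradiated cKO and WT cells, against 91.8% and 90.8% in steady-state cKO and WT cells. Igha was 7.02-fold higher [6.97, 7.07] in irradiated than in steady-state cKO cells and 1.70-fold higher [1.69, 1.71] in WT cells, where the summed V level was lower. The libraries led by Ighv1-81 were those with mostly Igha, and the libraries led by Ighv11-2 and Igkv14-126 were those with mostly Ighm.

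**Figure D5:**
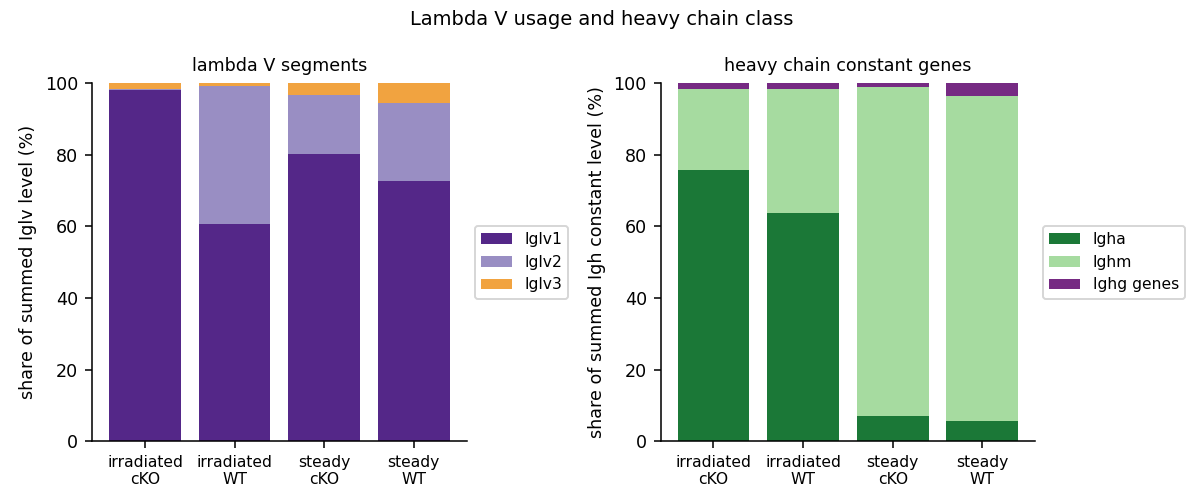
Stacked bars give the share of the lambda V level held by Iglv1, Iglv2 and Iglv3 (left) and of the heavy chain constant level held by Igha, Ighm and the Ighg genes (right), in percent of FPKM with 1 library per bar. Iglv2 is at 0.439% in irradiated cKO against 38.5% in irradiated WT cells, and Igha is at 75.8% and 63.7% in irradiated cKO and WT cells against 7.16% and 5.67% in steady-state cKO and WT cells.

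Few genes of the V(D)J machinery were abundant enough to compare. Of 10 such genes, 3 were kept between the irradiated genotypes and 5 between the steady-state genotypes, and none was at least 2-fold apart, against 5.51% and 3.34% of all genes kept, so that a count of 0 in lists this short says little about them. Rag1 and Rag2, which together cut the segments, were at 0.232 and 0.411 FPKM in irradiated cKO and 0.205 and 0.0396 FPKM in irradiated WT cells. At steady state they were at 0.0719 and 0.660 FPKM in cKO and 0.0872 and 0.539 FPKM in WT cells. The recombinase genes were thus under 1 FPKM in every library. Dntt, the template-independent polymerase active at the joints, was at 1.82 and 1.51 FPKM in irradiated cKO and WT cells, against 12.4 and 14.5 FPKM in steady-state cKO and WT cells.

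Genes of antibody secretion showed the same genotype directions where they passed the fold. Of 18 listed, 16 were kept between the irradiated genotypes, with 3 at least 2-fold higher and 0 lower in cKO, against 4.47% and 1.04% of all genes kept, while Tnfrsf17 (the receptor BCMA), at 13.9 FPKM in cKO and 6.81 FPKM in WT cells, was short of the fold. At steady state 17 were kept, with 0 higher and 3 lower in cKO, against 0.643% and 2.70% of all genes kept. Mzb1, a chaperone of antibody assembly, was at 124 and 48.5 FPKM in irradiated cKO and WT cells and at 113 and 234 FPKM in steady-state cKO and WT cells. Short of the fold, Fkbp11, Creld2, Sec11c, Ssr4, Hspa5 and Sdf2l1 ran the other way, lower in irradiated cKO than in irradiated WT cells. At steady state only Hspa5 of the list was higher in cKO, also short of the fold. Between irradiated and steady-state WT cells 9 of 17 kept were lower and 0 higher, and in cKO cells 1 of 17 was lower, where 18.9% of all genes kept in WT and 22.6% of those kept in cKO cells were lower. The median difference of the list was 0.15 between the irradiated and -0.53 between the steady-state genotypes.

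Of 12 genes of the pre-B and B cell receptors, 7 were kept between the irradiated genotypes, with Cd79a, a signalling chain of the receptor, at least 2-fold higher in cKO (57.2 FPKM, against 25.4 FPKM in WT cells) and none lower. Between the steady-state genotypes 10 were kept and none was 2-fold apart. Of all genes kept, 5.51% were 2-fold apart between the irradiated and 3.34% between the steady-state genotypes, so the counts of 0 in these lists are near the share of all genes. Of 12 factors known at V promoters and in B cell identity, 5 were kept in each genotype comparison. Pou2af1, the coactivator of octamer-bound factors at V promoters, was at 7.31 FPKM in irradiated cKO and 2.43 FPKM in irradiated WT cells, against 8.75 FPKM in steady-state cKO and 13.0 FPKM in steady-state WT cells. It was the only factor 2-fold higher in irradiated cKO, and none passed the fold at steady state. Of 5 genes of somatic mutation, 2 were kept and none was 2-fold apart in any comparison, where on irradiation 32.9% of all genes kept in cKO and 37.8% of those kept in WT cells were.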

How the data were processed

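RNA-seq of 4 libraries was used, 1 per combination of genotype and condition. The values deposited by the authors are FPKM per gene, 1 file per library, per the file headers. Per the submitters' processing notes, the build was mm10 and the tools of the series were BWA 0.7.12-r1039, Bowtie, HOMER and MACS2 2.1.0. The tool behind the FPKM values and the handling of reads matching several genes are not given in the sources used here. Symbols were joined to 30231 of 30409 identifiers.

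Reads were recovered from the FPKM with Python 3.11.15, numpy 2.4.6 and pandas 2.3.3. The authors' values imply per-library scaling totals of 23450734, 22146433, 25239648 and 26031985 for irradiated cKO, irradiated WT, steady-state cKO and steady-state WT cells. For each gene the smallest length that makes all 4 values whole reads was taken, and it was found for 29934 of 29934 genes above 0. For 14 V segments whose length came out under 200 bases, the smallest multiple of at least 280 bases was used. Recovered lengths equalled the annotated ones for 10 of 13 genes with a single exon, and differed for the J segments Ighj2, Igkj2 and Igkj5. On data simulated at the recovered lengths, all reads were exact for 98.7% of 236 V segments and 92.4% of 29064 genes. Since the simulation took these lengths as true, it cannot show whether they are right. Reads of a gene may be low by a whole factor. The reads recovered in genes were 86.9%, 112%, 87.7% and 96.5% of these totals in the same order, so the total is not the number of gene reads, and in irradiated WT cells it is below it. Shares of gene reads use the recovered reads, and FPKM keeps the authors' total. Intervals are at 95% (Clopper-Pearson for shares, conditional exact binomial for ratios, delta method for effective numbers, from scipy 1.17.1) and cover counting error only, since no molecular identifiers are known.

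Levels were summed FPKM per chain. Effective number, inverse Simpson number, rarefaction and usage overlap were computed within each chain. Members were counted as apart at 2-fold or more on log2(FPKM + 1) with 5 FPKM or more in the higher library. Shares over all genes include the V segments themselves. A fold against 0 reads was taken against 3 reads in that library. Named segments were the top 5 of each chain in each library, all Iglv, and, in each comparison, up to 5 at either end of the ratio of shares among those with 20 FPKM or more. The Igkv8 family, the families set against it, Igkv8-21 and the segments in the last section were added after their values were seen. The members and the gene lists were chosen with earlier results of these data known. Positions and pseudogene marks come from RefSeq GRCm38.p6, the assembly that mm10 names. Alternatives covered the scaling, pseudogenes, top segments, reads in place of FPKM, pseudocounts and minimum levels. The ATAC-seq samples were not analysed here. The values of some genes of these lists are not reported here.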

Additional observations from a re-analysis of the deposited data

Results flagged for a closer look

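The summed V level of cKO over WT cells was 2.57 after irradiation and 0.601 at steady state. It stands out because the only library of each genotype moved one way after irradiation and the opposite way at steady state. The difference between the conditions was not tested, since each group held 1 library. By segments, 40 of 118 kept in both comparisons were at least 2-fold higher in irradiated cKO and 2-fold lower in steady-state cKO than in the matching WT library. That pattern held 1.08% of all 5733 genes kept in both, V segments included, and 0.392% of the 5615 other genes.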

How the results depend on the processing

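No paired analysis was possible because each group holds 1 library and the labels give no replicate numbers; for the same reason no library could be left out. The genotype directions of the summed V level held under the 5 alternatives run. The V level of cKO over WT after irradiation, 2.57 as deposited, was 3.29 by share of recovered reads, 2.77 with median of ratios scaling, 3.72 with upper quartile scaling, 2.66 without annotated pseudogenes and 2.44 without the top segment of each chain. At steady state, 0.601 as deposited, it was 0.666, 0.654, 0.518 and 0.465 by read share, upper quartile, no pseudogenes and no top segments. Irradiated over steady-state WT, 0.201, was 0.172, 0.224, 0.304, 0.270 and 0.285 in the order first given. Irradiated over steady-state cKO, 0.859, was 0.849 by read share but turned to 1.03 and 1.73 with both scalings, 1.38 without pseudogenes and 1.496 without top segments. The upper quartile moved the median of all genes to 0.07, 0.12, 0.85 and 0.85 (log2) in the comparisons of irradiated genotypes, steady-state genotypes, cKO and WT conditions, against -0.45, 0.01, -0.20 and 0.21 as deposited. The pseudogene marks include Igkv14-126, Ighv7-1 and Ighv7-3, so that alternative removes leading segments by its construction. The alternative without top segments leaves out each library's own leaders, which were not the same segments in all libraries.

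Effective numbers are given for irradiated cKO, irradiated WT, steady-state cKO and steady-state WT cells. Inverse Simpson numbers were 11.4, 12.5, 3.92 and 8.24 for Ighv and 16.0, 16.5, 3.17 and 4.92 for Igkv. Without pseudogenes, Igkv gave 24.6, 25.9, 29.6 and 28.0, and Ighv 23.2 in irradiated cKO, 9.24 in steady-state cKO and 18.4 in steady-state WT cells. By reads, Ighv gave 8.76 and 17.1 in steady-state cKO and WT cells, and Igkv 25.5 in irradiated cKO, 9.43 in steady-state cKO and 13.8 in steady-state WT cells. With segments of 5 FPKM or more, Ighv in irradiated cKO gave 23.8. Without Ighv11-2, Ighv gave 23.1, 17.7, 24.3 and 29.7, and without Igkv14-126, Igkv gave 24.6, 26.0, 29.6 and 28.0, an alternative added after seeing the data. That alternative takes out the leaders of the steady-state libraries only, and so favours higher steady-state numbers by its construction. The kappa share was 89.8%, 88.0%, 89.0% and 88.6% by reads and 89.7%, 86.9%, 79.6% and 82.6% without pseudogenes. All 28 alternative counts of segments 2-fold apart were within 1.5 times the counts given. Depth limits segments at 0: 3 reads correspond to 0.115 to 0.135 FPKM for a gene of 1 kb. For V segments, whose median recovered length was 358 bases, 3 reads are a higher FPKM, such as 0.342 for Igkv4-80 in steady-state cKO cells.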

Other observations

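Some segments known from antibodies related to those of the leaders were picked after the values were seen. The T15 antibody pairs Ighv7-1 with Igkv7-33, which was at 0 FPKM in both irradiated libraries and at 0.109 and 0.105 FPKM (1 read each) in steady-state cKO and WT cells, where Ighv7-1 was at 2021 and 2445 FPKM. A further B-1 cell antibody to phosphatidylcholine uses Ighv12-3 and Igkv4-91. Ighv12-3 was at 1.21 and 0 FPKM in irradiated cKO and WT cells, and at 25.0 and 86.0 FPKM in steady-state cKO and WT cells. Igkv4-91 was at 706 and 105 FPKM in irradiated cKO and WT cells, and at 395 and 847 FPKM in steady-state cKO and WT cells. At steady state Ighv12-3 thus made up 0.167% of the heavy chain V level in cKO and 0.360% in WT cells, against 47.9% and 30.2% for Ighv11-2.

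Among the IgG constant genes, Ighg2c was at 146 FPKM in irradiated cKO and 2.69 FPKM in irradiated WT cells, 54.2-fold higher [43.4, 68.5], and at 42.3 and 245 FPKM in steady-state cKO and WT cells, 5.80-fold lower in cKO. Ighg3 was at 0.867 and 0.501 FPKM in irradiated cKO and WT cells, and at 58.3 and 420 FPKM in steady-state cKO and WT cells, 7.21-fold lower in cKO. Ighg1 was at 0.181 and 0.261 FPKM in irradiated cKO and WT cells, and at 0.153 and 24.9 FPKM in steady-state cKO and WT cells. Ighg2b ran against Ighg2c after irradiation, at 36.6 FPKM in irradiated cKO and 73.3 FPKM in irradiated WT cells. At steady state Ighg2b was also lower in cKO, at 86.1 FPKM against 334 FPKM in WT cells. The IgG genes as a whole were at most 3.49% of the heavy chain constant level in any library.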
